A study of Danio rerio with 4 samples.

Results

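Insulin-like growth factors (IGFs) are secreted ligands that signal through a receptor tyrosine kinase to promote growth, survival and migration of cells. In tissue they are held by IGF binding proteins, which carry or sequester the ligand, and proteases that cut the binding proteins set it free again. In mammalian skin the ligands come largely from dermal cells and wound macrophages, while the receptor is found in most cell types. Zebrafish carry paired copies of several of these genes, marked a and b.

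9 genes of this system were followed here in single-cell RNA sequencing data of adult zebrafish skin, out of 25432 genes in the count tables. They were found by symbol, and all 9 were present: the ligands *igf1*, *igf2a* and *igf2b*, the receptor *igf1ra*, and the binding proteins *igfbp2a*, *igfbp3*, *igfbp5a*, *igfbp5b* and *igfbp7*. The material was skin of wild-type adults (the study used the TL and EK strains, and which of them gave these libraries is not stated in the labels): untreated unwounded skin, and full-thickness laser wounds (2 mm by the labels, while the study's methods give another diameter) taken at 2, 4 and 6 days post wounding (dpw). Each of the 4 conditions was 1 library made from 3 fish that had been pooled, so no difference between stages has a replicate check and none was tested. The intervals given below are 95% intervals that cover counting error only. Wounds were cut out with a 4 mm punch whereas unwounded skin was scraped off, so that way of sampling and wounding cannot be told apart. Every stage was set against the same unwounded library.

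29185 cells of 36239 passed the study's limits, 5802 to 8314 per library, with a median of 3979 to 4190 unique molecular identifiers (UMIs, 1 per captured transcript) per cell in each library. Pairs of libraries shared 10 to 17 cell barcodes among the cells kept. Clustering was done without the IGF genes, and clusters were named from fixed markers, which gave 12 named classes and 13 unnamed clusters (6263 cells). Both fibroblast-like clusters carried all 8 fibroblast markers, the endothelial-like and the mural-like cluster (mural cells wrap vessels) 7 of 8 each, and the scale osteoblast-like cluster, which stands for the cells that build the bony scales, 6 of 8. Class sizes differed strongly between the libraries. Fibroblast-like cells numbered 523, 451, 1133 and 1434 from unwounded skin to 6 dpw, macrophage-like cells 261, 1866, 913 and 403, and endothelial-like cells 43, 307, 439 and 357. The unwounded endothelial-like and mural-like values therefore rest on 43 and 14 cells. The median depth of fibroblast-like cells also differed, at 5030 UMIs in unwounded skin and 12139, 11963 and 6708 at 2, 4 and 6 dpw. Its part in the results below was not tested. Levels are given as CPM, the UMIs of a gene scaled to a common total for each class in each library, and they do not compare 1 gene with another.

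The 9 genes gave 38254 UMIs, of which fibroblast-like cells held 51.8%, although they made up 12.1% of the cells and 16.5% of all UMIs. Most of the 38254 UMIs were of *igfbp5b* (20481) and *igf2b* (12377), so the summed share mainly follows them. For single genes the fibroblast-like share ranged from 6.4% for *igfbp7* to 79.7% for *igf1*. In the single libraries the share over all 9 genes was 57.3% in unwounded skin (95% interval 56.1 to 58.5), 37.7% at 2 dpw (36.7 to 38.7), 54.7% at 4 dpw (53.8 to 55.6) and 56.7% at 6 dpw (55.7 to 57.6). The 2 dpw library stood below the other 3 libraries. It was also the library with the fewest fibroblast-like cells, 5.82% of its cells against 9.01% before wounding, 15.5% at 4 dpw and 17.3% at 6 dpw. Of all UMIs, however, these cells held 10.24% at 2 dpw and 7.94% in unwounded skin, 27.3% at 4 dpw and 19.2% at 6 dpw. When classes were rebuilt in other ways the unwounded share ranged down to 45.7% and the 4 and 6 dpw shares up to 62.9% and 64.5%, and 2 dpw was still the lowest.

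**Figure D1:**
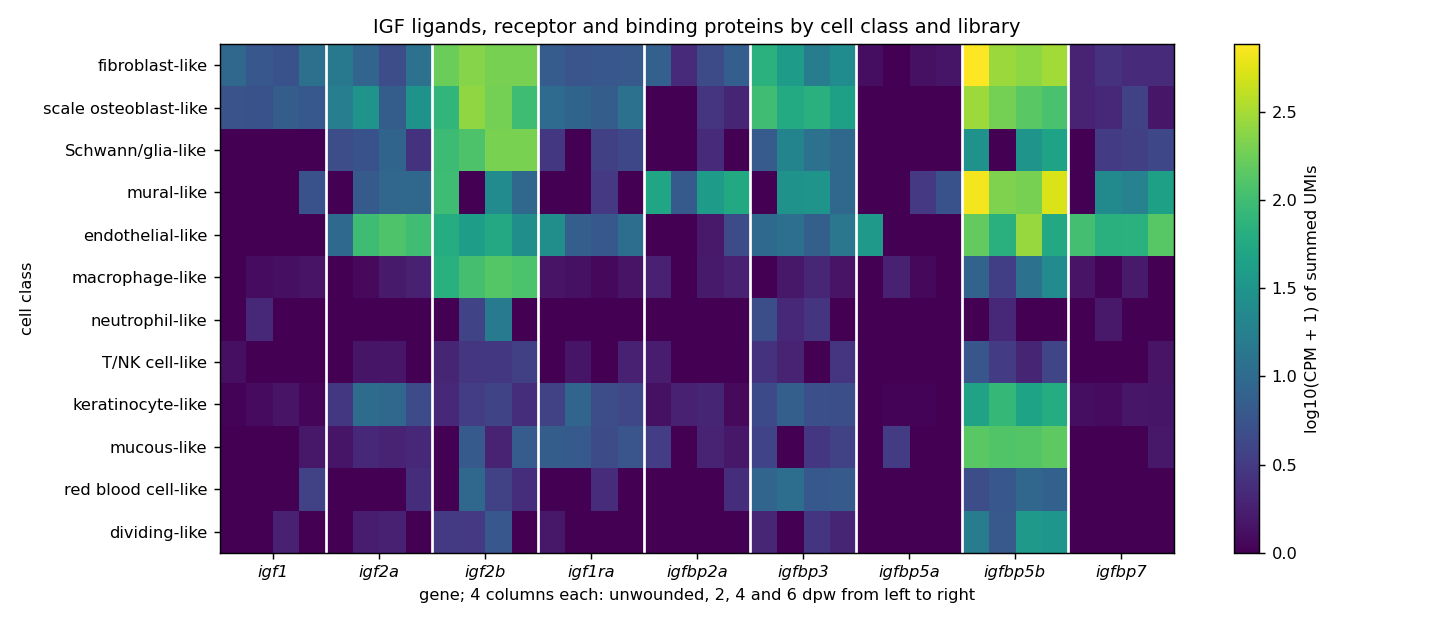
CPM of summed UMIs of the 9 genes, as log10(CPM + 1) in colour, for 12 named cell classes (rows) and, for each gene, the 4 libraries from unwounded to 6 dpw (columns). *igf2b* is bright in fibroblast-like, scale osteoblast-like, Schwann/glia-like and macrophage-like rows, *igfbp7* and *igf2a* in the endothelial-like row, and *igfbp5b* in most non-blood rows. Colours are to be read within a gene.

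Of the ligands, *igf1*, the main endocrine IGF of growth hormone signalling, was rare. It gave 296 UMIs in 204 cells. Fibroblast-like cells held 236 of them, and the scale osteoblast-like class followed with 27. In fibroblast-like cells the level was 8.14 CPM in unwounded skin, 5.00 at 2 dpw, 4.33 at 4 dpw and 10.7 at 6 dpw. Relative to unwounded skin this was 0.61 (0.35 to 1.07), 0.53 (0.34 to 0.86) and 1.31 (0.86 to 2.05) times, so that none passed 2-fold. Within the fibroblast-like class *igf1* lay mainly in cluster 3, whose leading genes *ucmaa*, *angptl7*, *matn4*, *cilp2* and *ogna* code for matrix and tendon- or cartilage-type proteins. There it stood at 13.9 CPM in unwounded skin, 13.0 at 2 dpw, 6.45 at 4 dpw and 19.3 at 6 dpw, against 5.76, 1.27, 1.58 and 3.09 in cluster 0. Cluster 3 was above cluster 0 in all 4 libraries. In cluster 3 the 6 dpw level was 2.99 times the 4 dpw level (2.12 to 4.27). Of the 1604 cells of cluster 3, 154 were unwounded. In pooled clustering without integration, the fibroblast-like cluster led by *ucmaa*, *matn4* and *ogna* had 16 unwounded cells of 1425. Another, led by *clec19a*, *fgl2b* and *mgp*, had 239 of 453. Whether unwounded and wound cells of 1 cluster are like cells was not tested, here and for the genes below.

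The ligand with the broadest dermal source was *igf2b*, with 12377 UMIs in 4040 cells. Zebrafish *igf2a* and *igf2b* are copies of the gene for Igf2, known in mammals as a growth factor of embryonic tissue. In fibroblast-like cells *igf2b* stood at 173 CPM in unwounded skin, 227 at 2 dpw, 195 at 4 dpw and 194 at 6 dpw. The 3 wound values were 1.31 (1.19 to 1.45), 1.12 (1.03 to 1.23) and 1.12 (1.02 to 1.23) times the unwounded one, well short of 2-fold. Fibroblast-like cells thus had this ligand before wounding at close to the level they had after it. In cluster 0 the level was 158, 238, 212 and 182 CPM from unwounded skin to 6 dpw, and in cluster 3 it was 210, 205, 181 and 209.

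Outside the fibroblast-like class the levels of *igf2b* differed more between unwounded skin and wounds. Macrophage-like cells had 66.4 CPM in unwounded skin, 108 at 2 dpw, 131 at 4 dpw and 115 at 6 dpw, which is 1.62 (1.38 to 1.93), 1.97 (1.66 to 2.36) and 1.74 (1.42 to 2.13) times unwounded. All 3 wound values lay above the unwounded one without passing 2-fold. Cluster 20 of the class stood at 48.7, 131, 147 and 90.2 CPM and cluster 1 at 84.6, 106, 134 and 131. Scale osteoblast-like cells had 77.9 CPM in unwounded skin, 253 at 2 dpw, 189 at 4 dpw and 95.9 at 6 dpw. Here the 2 and 4 dpw values were 3.24 (2.52 to 4.20) and 2.43 (1.88 to 3.15) times unwounded and the 6 dpw value was 1.23 times (0.95 to 1.61). Schwann/glia-like cells stood at 93.5, 117, 202 and 201 CPM, 2.16 (1.56 to 3.04) and 2.15 (1.53 to 3.05) times unwounded at 4 and 6 dpw. The unnamed cluster 26, which had 5 cells in unwounded skin, gave 55.3, 129 and 130 CPM at 2, 4 and 6 dpw. It carried 5 markers of dividing cells and 4 of the muscle lineage. Its leading genes include *cdh15*, itself on the muscle lineage list, *plaub* and *col18a1b*. In the paper *plaub* and *col18a1b* mark a wound-specific fibroblast subcluster. In pooled clustering without integration, a cluster led by *plaub* and *col18a1b* was named fibroblast-like on 7 markers and also carried 3 muscle lineage markers. Whether cluster 26 holds such fibroblasts was not tested, and the fibroblast-like class and its shares leave it out.

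As a measure of background, T/NK cell-like cells gave 0.98 to 2.56 CPM of *igf2b* and red blood cell-like cells 0 to 8.41 CPM over the 4 libraries. After each cell was thinned to 500 UMIs, 9.40% of fibroblast-like, 7.82% of scale osteoblast-like, 6.04% of Schwann/glia-like and 4.85% of macrophage-like cells had a UMI of *igf2b*, against 0.0785% of T/NK cell-like and 0.264% of red blood cell-like cells. Without thinning, 35.2% of unwounded and 63.0% of 2 dpw fibroblast-like cells had one, in which the deeper 2 dpw cells gain (median 12139 UMIs against 5030). Keratinocyte-like cells, at 1.12 to 2.90 CPM of *igf2b*, overlapped the range of the T/NK cell-like class.

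Macrophage-like cells made up 24.1% of the cells at 2 dpw and held 48.5% of all *igf2b* UMIs of that library (46.9 to 50.1) and fibroblast-like cells 36.0% (34.4 to 37.6). In unwounded skin the shares were 16.4% and 63.5%, at 4 dpw 18.5% and 59.5%, and at 6 dpw 9.11% and 70.1%. The 2 dpw library was the only 1 of the 4 in which the macrophage share exceeded the fibroblast share.

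**Figure D2:**
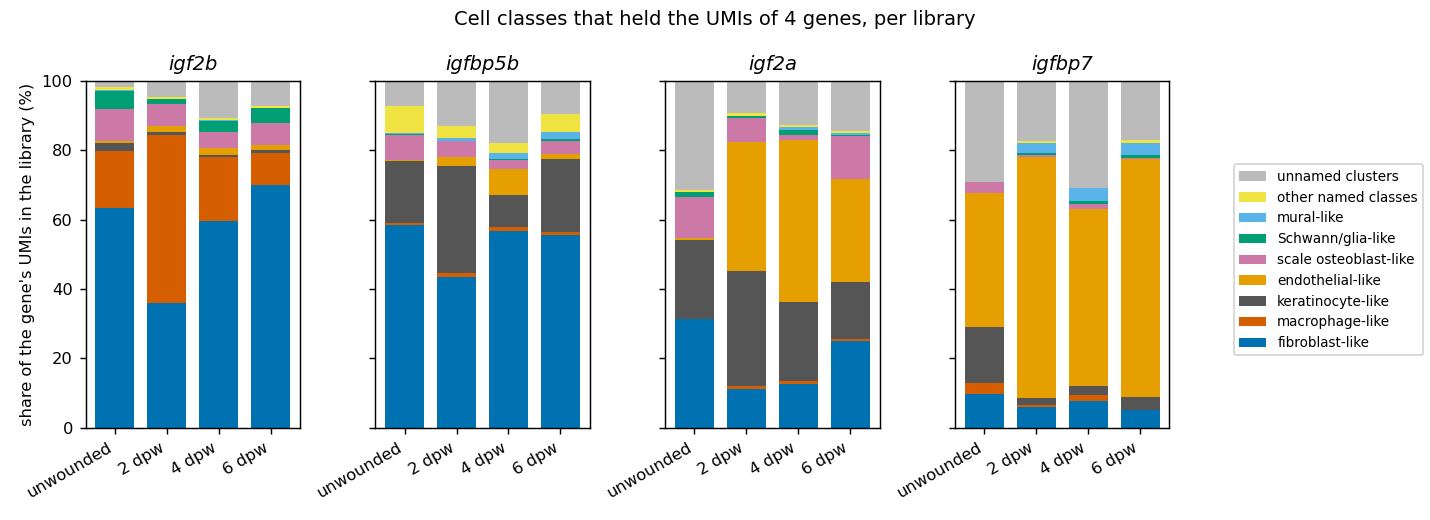
Share of the UMIs of *igf2b*, *igfbp5b*, *igf2a* and *igfbp7* (y axis, percent) held by each cell class in each of the 4 libraries (x axis). The macrophage-like part of *igf2b* reaches 48.5% at 2 dpw, and the endothelial-like part of *igf2a* goes from 0.667% in unwounded skin to 46.7% at 4 dpw. Endothelial-like cells themselves go from 0.741% to 6.00% of the cells. A single cell held 55 of their 208 *igf2a* UMIs at 4 dpw.

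The other copy, *igf2a*, had its highest level among the named classes in endothelial-like cells in the 3 wound libraries. This was not so in unwounded skin, where scale osteoblast-like cells (16.3 CPM) and fibroblast-like cells (13.7 CPM) were above them. Endothelial-like cells gave 1 UMI (8.64 CPM) in unwounded skin, and 149, 208 and 139 UMIs (96.3, 122 and 99.2 CPM) at 2, 4 and 6 dpw. These UMIs came from 15, 17 and 8 cells, and a single cell at 4 dpw held 55 of them. Set against unwounded skin, these levels were 11.1 (1.97 to 443), 14.1 (2.51 to 561) and 11.5 (2.03 to 456) times as high. All 3 rest on the 1 unwounded UMI among 43 cells, and when every cell weighed equally the ratios were 1.05, 0.952 and 0.985, so that the call was lost. After thinning, 0.611% of endothelial-like cells had a UMI. In keratinocyte-like cells, where more cells contributed, *igf2a* stood at 1.90 CPM in unwounded skin (26 cells with a UMI), 9.58 at 2 dpw (69 cells), 8.14 at 4 dpw (51 cells) and 3.68 at 6 dpw (47 cells). This is 5.04 (3.44 to 7.58), 4.28 (2.88 to 6.51) and 1.93 (1.28 to 2.98) times unwounded. All wound levels of the class were above the unwounded one and the T/NK cell-like class gave 0 to 0.486 CPM. Keratinocyte-like cluster 6 held 93 of the 134 UMIs at 2 dpw. There the ratios were 2.08 (1.27 to 3.56), 2.49 (1.46 to 4.42) and 1.31 (0.72 to 2.43). Cluster 12 had 4.60, 8.73 and 2.10 on 6 unwounded UMIs, and cluster 8 had 19.9, 22.7 and 17.2 on 1. Cluster 6 was 268 of 1572 keratinocyte-like cells in unwounded skin and 344 of 1113 at 2 dpw. Its part in the class ratio was not tested. Fibroblast-like cells had less *igf2a* in wounds, 13.7 CPM in unwounded skin and 7.76, 3.85 and 10.8 CPM at 2, 4 and 6 dpw. That difference lay in cluster 3, with 24.8 CPM in unwounded skin and 2.16, 1.95 and 3.55 CPM in wounds, whereas cluster 0 had 9.06, 10.4, 6.33 and 17.2 CPM. The cluster 3 values rest on 25 unwounded UMIs from 10 cells and on 4, 16 and 18 UMIs in the wounds.

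**Figure D3:**
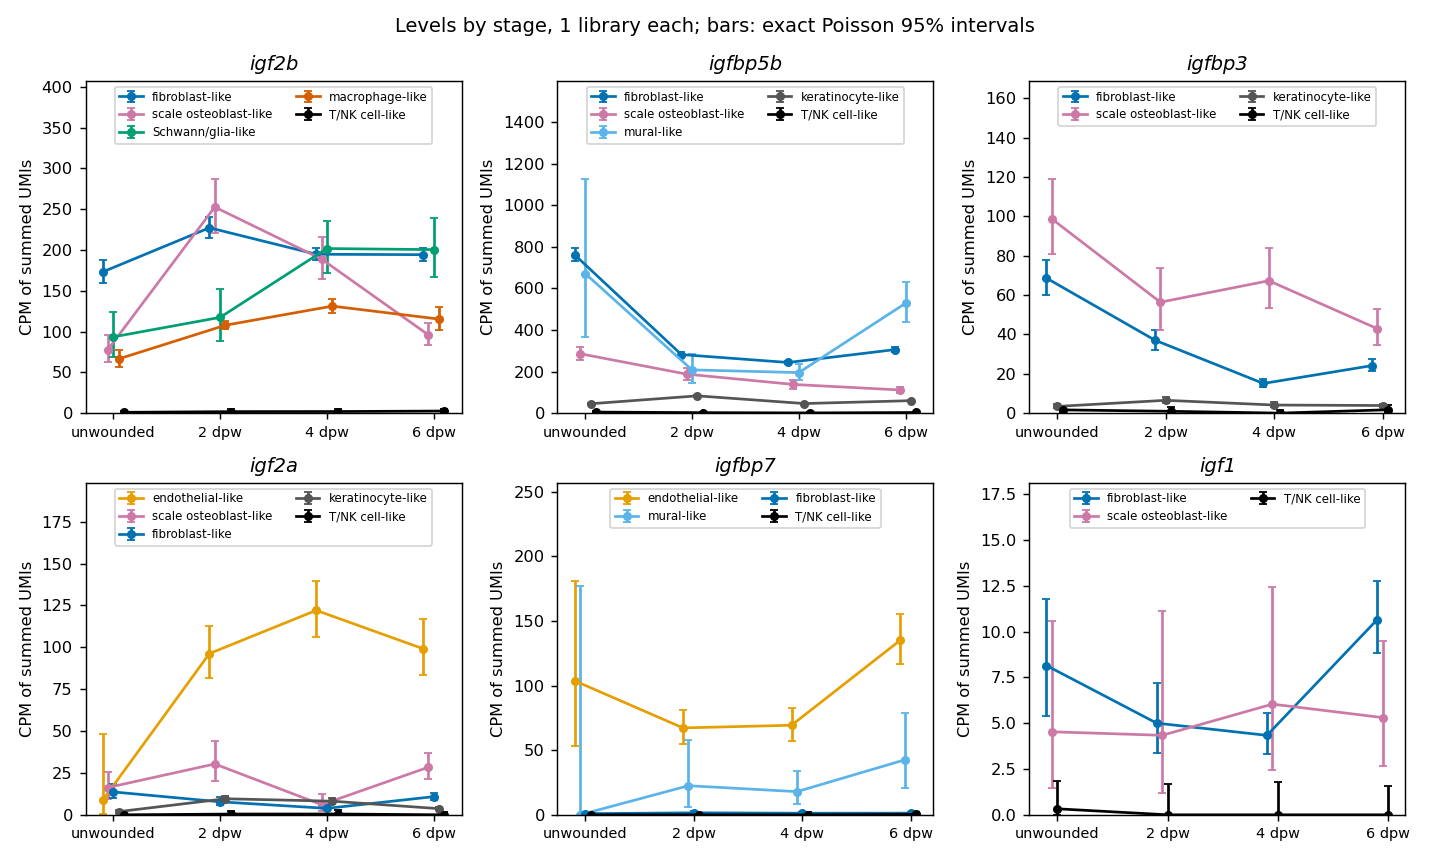
CPM of summed UMIs (y axis) of 6 genes in selected cell classes against stage (x axis, 1 library each), with exact Poisson 95% intervals as bars. *igfbp5b* in fibroblast-like cells goes from 763 to 282 CPM at 2 dpw, while *igf2b* in the same cells stays between 173 and 227 CPM.

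The receptor *igf1ra*, which binds Igf1 and Igf2, was found at low levels in many classes, with 734 UMIs in 676 cells and at most 5 in a single cell. Keratinocyte-like cells held 267 of the UMIs and fibroblast-like cells 180. The highest pooled level, 8.94 CPM in scale osteoblast-like cells, did not differ from the endothelial-like one of 7.55 CPM beyond counting error (ratio 1.18, 0.75 to 1.88). Keratinocyte-like cells stood at 2.57 CPM in unwounded skin, 7.79 at 2 dpw, 3.79 at 4 dpw and 3.06 at 6 dpw. The 2 dpw level was 3.03 times unwounded (2.13 to 4.38), while the 4 and 6 dpw ratios of 1.47 (0.96 to 2.26) and 1.19 (0.80 to 1.78) included no difference. Much of this lay in cluster 6, led by genes of basal keratinocytes such as *col17a1b* and *fermt1*, with 6.37, 14.1, 9.32 and 4.82 CPM. Cluster 6 was 268 of 1572 keratinocyte-like cells in unwounded skin and 344 of 1113 at 2 dpw. The part of this shift in the class ratio of 3.03 was not tested. In fibroblast-like cells the receptor stayed between 4.83 and 5.82 CPM. Its copy *igf1rb*, from the list of further pathway genes, was at 46.5 CPM in unwounded fibroblast-like cells and at 24.5, 20.0 and 30.7 CPM at 2, 4 and 6 dpw. In unwounded keratinocyte-like cells *igf1rb* gave 195 UMIs against 46 of *igf1ra*. There *igf1rb* was 1.47, 1.12 and 0.92 times unwounded at 2, 4 and 6 dpw, and none passed 2-fold.

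Among the binding proteins followed here *igfbp5b* had by far the most UMIs, 20481 in 4176 cells. The binding protein *igfbp1a*, from the list of further pathway genes, had more, 34290 in 5620 cells. In mammals Igfbp5 binds to extracellular matrix as well as to IGFs. Fibroblast-like cells had 763 CPM in unwounded skin (95% interval 734 to 793), 282 at 2 dpw, 244 at 4 dpw and 306 at 6 dpw. That amounts to 0.37 (0.35 to 0.39), 0.32 (0.30 to 0.34) and 0.40 (0.38 to 0.42) times the unwounded level. All 3 wound libraries were below unwounded skin by more than 2-fold, as were 10.15%, 15.42% and 10.07% of all genes that reached 50 UMIs in these comparisons. Each of the 2 fibroblast-like clusters showed it, although whether their unwounded and wound cells are like cells was not tested. Cluster 0 went from 843 CPM to 298, 269 and 226, and cluster 3 from 571 CPM to 248, 224 and 398, which left cluster 3 at 0.70 times unwounded at 6 dpw (0.63 to 0.77). At 6 dpw the clusters parted: cluster 3 was 1.775 times its 4 dpw level (1.67 to 1.89) and cluster 0 was 0.84 times (0.78 to 0.90). The share of fibroblast-like cells with a UMI after thinning to 500 was 21.0% in unwounded skin (17.6 to 24.8), 12.4% at 2 dpw, 12.6% at 4 dpw and 14.9% at 6 dpw. Without thinning, the shares were 49.7%, 59.0%, 57.9% and 48.3%, in which the deeper wound cells gain.

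The mural-like, scale osteoblast-like and endothelial-like classes did not share the same course. Mural-like cells had 672 CPM of *igfbp5b* in unwounded skin, from 14 UMIs in 14 cells, and 208, 195 and 529 CPM at 2, 4 and 6 dpw, past 2-fold lower at 2 and 4 dpw and 0.79 times at 6 dpw. Scale osteoblast-like cells had 286, 188, 138 and 111 CPM, and the 6 dpw value was 0.39 times unwounded (0.33 to 0.46). The order of the stages differed here, since these cells had their lowest value at 6 dpw and the mural-like cells at 4 dpw. Endothelial-like cells had 156, 65.9, 273.6 and 53.5 CPM, and the 4 dpw value came from 466 UMIs in 33 cells.

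The epidermal classes and clusters were not alike in *igfbp5b*, and the difference from the dermal classes was not tested. Keratinocyte-like cells as a class had 45.0 CPM in unwounded skin, 83.1 at 2 dpw, 46.1 at 4 dpw and 59.9 at 6 dpw, and the 2 dpw level was 1.85 times unwounded (1.69 to 2.02). In cluster 6, the one with basal-type leading genes, the level was 67.1 CPM in unwounded skin (57 of 268 cells with a UMI), 139 at 2 dpw (146 of 344), 135 at 4 dpw (95 of 271) and 166 at 6 dpw (110 of 294). The ratios were 2.08 (1.75 to 2.48), 2.01 (1.66 to 2.45) and 2.47 (2.06 to 2.98). Median depth in cluster 6 was 6693 UMIs in unwounded skin and 15312.5, 5792 and 7343.5 at 2, 4 and 6 dpw. The counts of cells with a UMI are therefore not at equal depth. All 3 wound libraries were above unwounded skin in these cells. Other keratinocyte-like clusters differed from them, such as cluster 12 with 30.4, 41.5, 8.26 and 23.1 CPM and cluster 22, where 8 unwounded cells gave 208 CPM and the wounds 10.4, 61.2 and 58.8. Mucous-like cells had 137, 127, 129 and 146 CPM. A single cell held 157 of the 297 unwounded UMIs, so the unwounded level of the class rests largely on that cell. This class was named on 4 of 8 markers, and its leading genes held *pou2f3* and *avil* beside *agr2* and *muc5.2*, so it may not be mucous cells alone. T/NK cell-like cells, as background, gave 0.972 to 4.91 CPM and red blood cell-like cells 3.82 to 7.93 CPM.

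A separate point concerns the unnamed cluster 10, led by genes of mitochondrial metabolism, with a median of 1023 UMIs per cell over all libraries. Not all of its cells were shallow, and a 4 dpw cell in it held 21177 UMIs. It had 178 CPM of *igfbp5b* in unwounded skin and 134 at 2 dpw, 606 at 4 dpw and 141 at 6 dpw. At 4 dpw 62 of its 324 cells held 633 UMIs. In pooled clustering without integration, an unnamed cluster of 67 cells had 66 from 4 dpw and a median of 8791 UMIs. Its leading genes include *hsd17b1*, *cyp19a1a* and *gsdf*. Whether these cells are among those of cluster 10, or gave its 4 dpw level, was not tested. Cluster 10 was excluded from every named class.

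**Figure D4:**
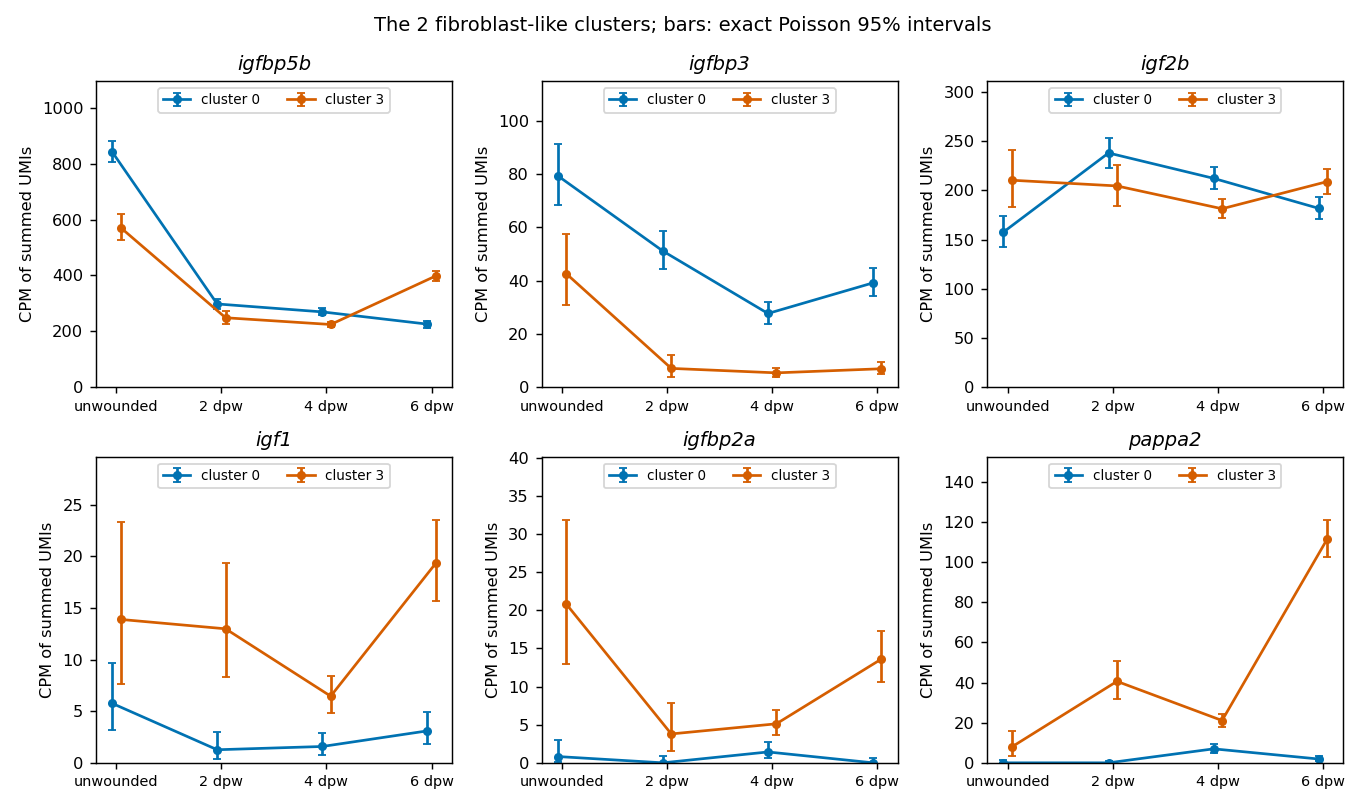
CPM of summed UMIs (y axis) of 5 of the genes and of *pappa2* in the 2 fibroblast-like clusters for unwounded skin and 2, 4 and 6 dpw (x axis), with exact Poisson 95% intervals as bars. *igf1*, *igfbp2a* and *pappa2* lie mainly in cluster 3, *igfbp3* mainly in cluster 0, and *igfbp5b* is lower in wounds in both.

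*igfbp3*, in mammals the main carrier of IGFs in blood, shared the direction of *igfbp5b* in fibroblast-like and scale osteoblast-like cells. It was highest in scale osteoblast-like cells, with 98.7 CPM in unwounded skin, 56.4 at 2 dpw, 67.3 at 4 dpw and 42.9 at 6 dpw. All 3 wound values were below unwounded, and the 6 dpw ratio of 0.43 (0.32 to 0.58) passed 2-fold, as did 7.841% of the genes tested there in the lower direction. With equal weight for every cell this ratio was 0.60, which ends the call. In fibroblast-like cells it stood at 68.7 CPM in unwounded skin, 37.1 at 2 dpw, 15.1 at 4 dpw and 24.2 at 6 dpw, or 0.54 (0.45 to 0.65), 0.22 (0.18 to 0.26) and 0.35 (0.29 to 0.42) times unwounded. Both clusters were lower, and the difference between them was not tested. Cluster 3 went from 42.7 CPM to 7.03, 5.36 and 6.90, and cluster 0 from 79.4 CPM to 51.1, 27.7 and 39.2. Keratinocyte-like cells had 3.41, 6.51, 4.11 and 3.87 CPM. Of their 285 UMIs 146 were in cluster 6, at 9.76, 12.5, 10.6 and 11.9 CPM, whereas clusters 25 and 23 held 1 and 0 UMIs. As background, T/NK cell-like cells gave 1.14 CPM over all libraries (0.57 to 2.04), and red blood cell-like cells gave 6.83 CPM from 16 UMIs (3.91 to 11.1).

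*igfbp7*, a relative that binds IGFs weakly in mammals and is known as a product of blood vessels, was highest among the named classes in endothelial-like cells. It gave 687 UMIs, 153 of them in unnamed clusters and 423 in the endothelial-like class. The level was 104 CPM in unwounded skin (10 of 43 cells with a UMI), 67.2 at 2 dpw (81 of 307), 69.3 at 4 dpw (97 of 439) and 135 at 6 dpw (130 of 357). Against unwounded skin the ratios of 0.65 (0.36 to 1.29), 0.67 (0.37 to 1.33) and 1.30 (0.73 to 2.56) included no difference. Between the wounds, the 6 dpw level was 1.95 times that at 4 dpw (1.54 to 2.47). The endothelial-like level was 3.61 times that of mural-like cells (2.37 to 5.75), the next class, and the ranges of the libraries did not overlap. Fibroblast-like cells gave 0.873 to 1.55 CPM. The number of *igfbp7* UMIs in the whole library was 31 in unwounded skin and 150, 231 and 275 at 2, 4 and 6 dpw, while the endothelial-like cells numbered 43, 307, 439 and 357.

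*igfbp2a* was rare, with 328 UMIs in 215 cells. Unnamed clusters held 81 of these UMIs. Among the named classes its pooled level was highest in mural-like cells, at 36.4 CPM from 34 UMIs, which is 8.40 times (5.61 to 12.3) that of fibroblast-like cells. Mural-like cells gave 1 UMI each in unwounded skin and at 2 dpw, 19 at 4 dpw and 13 at 6 dpw, too few to compare stages. Fibroblast-like cells held 150 of the UMIs, and 139 of these were in cluster 3. There the level was 20.8 CPM in unwounded skin, 3.79 at 2 dpw, 5.12 at 4 dpw and 13.6 at 6 dpw. In unwounded skin 4 cells held the 21 UMIs and a single cell held 17 of them, so the unwounded level rests on that cell.

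*igfbp5a*, which in zebrafish larvae is known from ion-transporting cells, gave 45 UMIs in 35 cells. No cluster was named ionocyte-like. 15 of the UMIs were in macrophage-like cells, 14 of them at 2 dpw (0.85 CPM), and 4 came from 1 unwounded endothelial-like cell. No level of it is compared between stages.

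In their own top classes, 6 of the 9 genes reached 50 UMIs over the wound and the unwounded library at each stage. 2 of the 6 were past 2-fold at 2 dpw, 2 at 4 dpw and 3 at 6 dpw. These were *igfbp5b* (lower in fibroblast-like cells) and *igf2a* (higher in endothelial-like cells, on 1 unwounded UMI) at all 3 stages, and *igfbp3* (lower in scale osteoblast-like cells) at 6 dpw. For *igf2a* the top class and the 50 UMIs were both reached through the wound libraries. This choice favoured a higher call, so the *igf2a* calls are counted but not read as a difference. Among all genes of endothelial-like cells 15.94%, 11.84% and 11.5% were at least 2-fold higher at 2, 4 and 6 dpw.

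The other 50 genes of a fixed IGF list found in the tables (receptors, further binding proteins, proteases, signalling genes and the growth hormone axis) set these values in context. In fibroblast-like cells 32, 38 and 38 of the 50 reached 50 UMIs at 2, 4 and 6 dpw. 2, 3 and 3 of them were at least 2-fold higher and 7, 14 and 9 at least 2-fold lower, while over all genes 10.31%, 10.0% and 7.307% were higher and 10.15%, 15.42% and 10.07% lower. Of the 9 genes themselves 5, 7 and 7 reached 50 UMIs here, none was at least 2-fold higher, and 1, 3 and 2 were lower. The median log2 ratio of the whole list, the 9 genes included, was -0.65, -0.72 and -0.38, against 0.03, -0.16 and -0.14 over all genes tested.

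The higher genes were the binding proteins *igfbp6b* and *igfbp2b* and a protease. *igfbp6b* (IGFBP6 prefers IGF2 in mammals) had 4 UMIs in unwounded fibroblast-like cells (1.16 CPM) and 397 at 2 dpw (68.5 CPM), 58.8 times as high (22.8 to 217), and then 6.33 and 5.14 CPM. It lay in cluster 0, with 394 of the 397 UMIs. *pappa2*, whose human counterpart cuts IGFBP3 and IGFBP5, showed the opposite placing. Cluster 3 had 7.94 CPM in unwounded skin (8 UMIs), 40.6 at 2 dpw, 21.1 at 4 dpw and 111 at 6 dpw (565 UMIs), and cluster 0 had 0 UMIs in unwounded skin and at 2 dpw. In cluster 3 the 6 dpw level was 14.0 times unwounded (7.08 to 32.7). *igfbp2b* was higher at 4 and 6 dpw, at 4.75 and 6.43 CPM against 2.33 CPM from 8 UMIs. The other copy of *igfbp6b*, *igfbp6a*, went the other way. It was 0.59, 0.15 and 0.22 times unwounded at 2, 4 and 6 dpw, from 34, 22 and 24 UMIs against 34.

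The lower genes included *stc2a*, which in mammals codes for an inhibitor of such proteases, with 86.7 CPM in unwounded skin and 57.6, 12.3 and 19.3 CPM at 2, 4 and 6 dpw. The growth hormone receptor *ghra* had 50.3 CPM in unwounded skin and 14.0, 12.5 and 25.5 CPM in wounds. *cish*, a feedback inhibitor of the pathway under that receptor, went from 163 CPM to 68.3, 48.6 and 64.4. *pik3r3b*, a regulatory subunit of PI3 kinase, went from 109 CPM to 28.1, 37.3 and 51.2, and *irs2b*, an adaptor of the insulin and IGF receptors, from 167 CPM to 79.9, 70.5 and 97.4. *htra1b*, from a protease family that cuts IGFBP5 in mammals, stayed between 413 and 620 CPM.

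**Figure D5:**
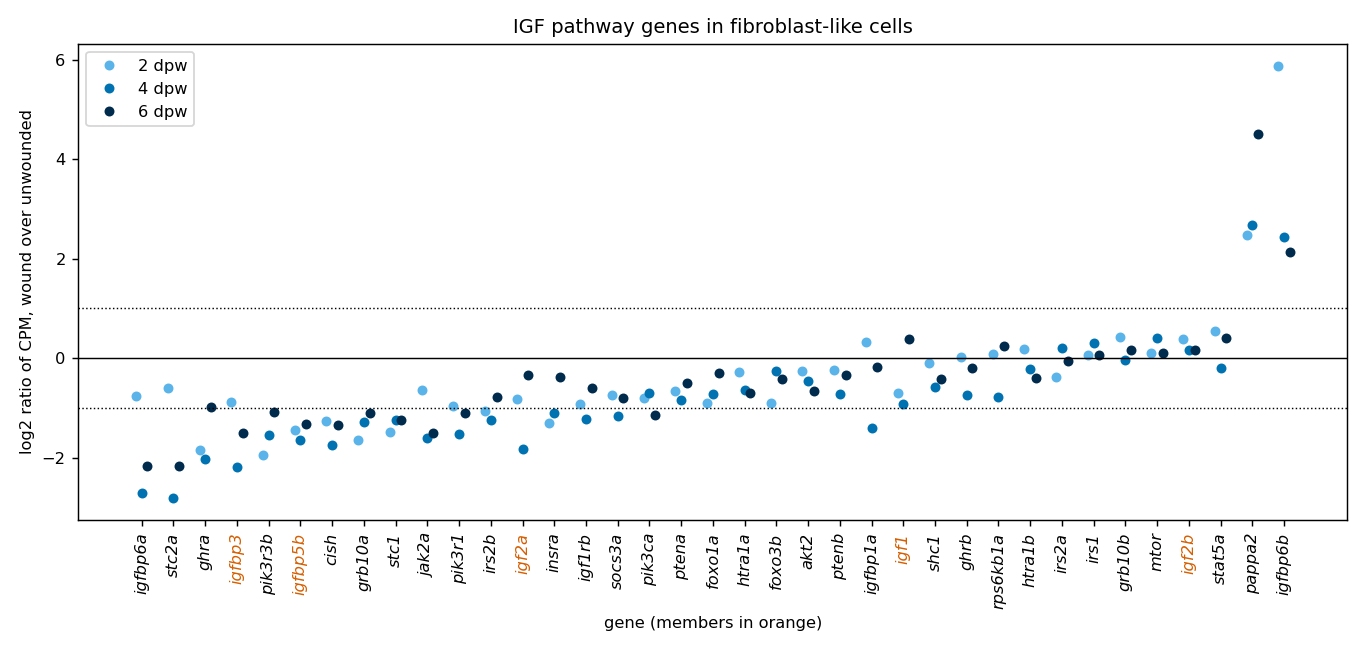
log2 ratio of CPM between each wound library and unwounded skin (y axis) for the genes of the IGF list with at least 50 UMIs in all 3 comparisons in fibroblast-like cells (x axis, ordered by their mean). Dotted lines mark 2-fold. *igfbp6b* and *pappa2* stand far above 0, *igf2b* lies near 0, and *igfbp5b* lies below -1 at all 3 stages.

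In keratinocyte-like cells 5 of the 9 genes could be read at each stage. 3 of them were at least 2-fold higher at 2 dpw (*igf2a*, *igf2b* and *igf1ra*), 2 at 4 dpw (*igf2a* and *igf2b*) and 0 at 6 dpw, and none was lower. The *igf2b* calls rest on 20 unwounded UMIs against 33 and 36, at levels that overlap the background range of T/NK cell-like cells, and are not read as a difference. Among all genes there, 11.2%, 5.283% and 2.768% were higher at 2, 4 and 6 dpw and 6.447%, 5.62% and 4.391% lower. Of the other list genes 33, 32 and 33 could be read, with 4, 6 and 2 higher and 1, 1 and 0 lower. Those higher at both 2 and 4 dpw were *igfbp6b* (0.95 CPM in unwounded skin and 24.6 at 2 dpw), *igfbp1a* (128 and 360 CPM), *htra1a* (4.47 and 25.7 CPM) and *htra1b* (12.2 and 67.4 CPM). At 6 dpw these 4 genes stood at 1.04, 205, 6.32 and 21.6 CPM, below their 2 dpw levels.

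The remaining classes had fewer readable genes. In macrophage-like cells *igf2b* and *igfbp5b* could be read, and *igfbp5b* was lower at 2 dpw (2.43 CPM against 7.33 CPM from 17 unwounded UMIs) and higher at 6 dpw (23.5 CPM). The unwounded level lay within the background range of red blood cell-like cells (3.82 to 7.93 CPM). The 2 dpw level lay within that of T/NK cell-like cells (0.972 to 4.91 CPM). Over all genes of this class, 11.21%, 7.284% and 5.249% were higher at 2, 4 and 6 dpw and 7.66%, 6.25% and 5.02% lower. The receptor gene *igf2r*, which in mammals clears Igf2, stayed there at 71.6, 64.3, 58.3 and 64.1 CPM over the 4 libraries. In endothelial-like cells the lower calls came to 9.318%, 8.813% and 7.592% of all genes at 2, 4 and 6 dpw, and *igfbp1a* was among them at each stage, with 1124 CPM from 13 unwounded cells and 155, 198 and 368 CPM in wounds. In scale osteoblast-like cells 3, 3 and 4 of the 9 genes could be read. *igf2b* was higher at 2 and 4 dpw, *igfbp5b* was lower at 4 and 6 dpw and *igfbp3* was lower at 6 dpw, while over all genes 11.01%, 13.42% and 10.77% were higher at 2, 4 and 6 dpw and 6.716%, 6.439% and 7.841% lower.

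As a description of likeness, the pattern of each gene with at least 300 UMIs was correlated with 12742 other genes over 47 sums, each of 1 class in 1 library. The sums of a library share its preparation and depth. For *igfbp7* the nearest were *arhgap29a* (Pearson r = 0.96), *esama*, *mmrn2a*, *cyp2p7* and *exoc3l1*, several of which are known from endothelium. For *igf2a* they were *cav1* (0.88), *ephb4b*, *nuak1a*, *rapgef1b* and *ccdc85b*. For *igf2b* they were *pcbd1* (0.90), *sesn3*, *fzd2*, *rgl1* and *slc2a10*, and for *igfbp3* *crtap* (0.86), a gene of collagen modification, with *rbms2b* and *fkbp9* next among the named ones. For *igfbp5b* they were led by *il13ra1* (0.84), *hoxc10a*, *amotl2a* and *tead1b*, for *igf1ra* by *dhrs3b* (0.83), *cdc42bpab* and *ackr3b*, and for *igfbp2a* by *cnnm2b* (0.84), *nr1h5* and *adora2aa*. *igf2b* and *igfbp5b* were less alike, with r = 0.37 between them.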

How the data were processed

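Single-cell suspensions were sequenced with the 10x Genomics 3′ kit. The deposited values are UMI counts per gene and cell that the authors made with Cell Ranger 6.1.2 on GRCz11 and analysed with Seurat 4.3.0, per the labels and file headers. UMIs of free RNA remain in them, and how reads shared by a and b gene copies were assigned was not checked here. Groups came from the time given in the labels of each sample.

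Cells with 500 to 30000 UMIs, 200 to 4500 genes and under 25% mitochondrial UMIs were kept, the study's limits. Libraries were normalised with sctransform 0.4.2, integrated on 3480 features without the IGF list and clustered with Seurat 5.3.0 (R 4.3.3; 17 dimensions, resolution 1) into 39 clusters. A cluster was named when at least 3 of a class's 8 fixed markers (127 of 136 in the files) were found in at least 10% of its cells at 2-fold the level of all others, without a tie or another class leading. Scrublet called 1 cell in all and so had not worked: no doublets were removed.

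UMIs were summed per class and library and given as CPM with exact Poisson intervals. Ratios had exact conditional binomial intervals and shares Clopper-Pearson intervals. Genes were called past 2-fold (at least 2, or at most 0.5) with at least 50 UMIs over both libraries, with 0 set to 3 UMIs. The ratio code recovered known folds in simulated data. Members, markers and lists were chosen with earlier results of these data known. All members were named in all classes, list genes by their count or with at least 50 UMIs, and likeness by the 5 nearest genes of at least 300 UMIs over sums of at least 100000 UMIs. No sequences or coordinates are given, since no sequence of the build was used here. Python 3.11.15, scanpy 1.11.5 and edgeR 4.0.16 (TMM factors only) served the alternatives: stricter cell limits, pooled clustering, cells classed by their own markers, equal cell weights, TMM factors, totals that leave out ribosomal protein, mitochondrial and haemoglobin genes, cells with high Scrublet scores or the most UMIs of a gene left out, and single fibroblast-like clusters (added after seeing the data).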

Additional observations from a re-analysis of the deposited data

Results flagged for a closer look

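The results below stood out because classes of the same libraries lay past 2-fold in opposite directions from unwounded skin. With 1 library per stage the difference between classes was not tested.

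At 4 dpw *igf2a* was 14.1 times its unwounded level in endothelial-like cells (2.51 to 561, 208 UMIs against 1) and 4.28 times in keratinocyte-like cells, but 0.282 times in fibroblast-like cells. In keratinocyte-like cluster 6 the ratio was 2.49 (1.46 to 4.42). The fibroblast-like ratio rests on 56 UMIs against 47, and 25 of the unwounded UMIs came from 10 cells of cluster 3. At the same stage *igfbp5b* was 2.21 times its unwounded level in dividing-like cells (1.345 to 3.66, 41 UMIs against 30), and 0.32 times in fibroblast-like, 0.29 times in mural-like and 0.48 times in scale osteoblast-like cells. The dividing-like class is a state named from cell division genes, and its cluster 27 also carried 6 T/NK cell markers. Its mix of cell types was not tested. At 6 dpw *igfbp5b* was 3.20 times its unwounded level in macrophage-like cells (1.83 to 5.88, 56 UMIs against 17), and 0.344 times in endothelial-like, 0.40 times in fibroblast-like and 0.39 times in scale osteoblast-like cells. The unwounded macrophage-like level lay within the background range of red blood cell-like cells, 3.82 to 7.93 CPM.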

How the results depend on the processing

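No paired analysis was possible because each condition is 1 library, and no library could be left out of a group for the same reason. The number of the genes past 2-fold in their top classes (2, 2 and 3) was 4 at 4 dpw when each cell was classed by its own markers, and 1, 1 and 1 at 2, 4 and 6 dpw when every cell weighed equally. Equal weights also moved *igf2a* in endothelial-like cells to 0.952 at 4 dpw and 0.985 at 6 dpw, and *igfbp3* in scale osteoblast-like cells to 0.60 at 6 dpw. The *igf2a* ratio could not be computed at 1000 UMIs or more, at 10% mitochondrial UMIs, without the top cells or with cells classed by their own markers. In these settings no unwounded UMI was left. For the number of genes past 2-fold, 0 was set to 3 UMIs there, so that *igf2a* could still be counted. The fibroblast-like share of the UMIs moved to 45.7%, 40.4%, 62.9% and 64.5% (unwounded to 6 dpw) with pooled clustering, and to 54.0%, 40.2%, 62.4% and 62.5% with cells classed by their own markers. It moved to 56.0% and 57.9% at 4 and 6 dpw under the 10% limit, to 56.9% and 58.8% without the 5% highest Scrublet scores, and to 55.9% in unwounded skin without the top cell. The cause of these shifts was not tested. Of 7 ratios past 2-fold, all 7 remained so with TMM factors, with totals that leave out ribosomal protein, mitochondrial and haemoglobin genes and with pooled clustering. Newly past 2-fold were 1 ratio with pooled clustering, 2 without the 5% highest Scrublet scores and 3 with cells classed by their own markers. Cluster 0 alone added 2 and cluster 3 alone added 1. *igfbp7* in endothelial-like cells ranged from 0.39 to 0.85, 0.46 to 0.95 and 0.905 to 1.85 at 2, 4 and 6 dpw. *igfbp5b* in fibroblast-like cells ranged from 0.27 to 0.45, 0.22 to 0.40 and 0.27 to 0.70 over all settings, the last being cluster 3 alone, chosen after seeing the data. Low counts limit *igf1*, *igfbp2a* and *igfbp5a*.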

Other observations

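Among the unnamed clusters, cluster 32 (216 cells, 12 of them unwounded) carried 7 endothelial and 7 mural markers and was left unnamed because of this tie. It gave *igfbp7* at 66.0 CPM in unwounded skin and 33.0, 48.0 and 69.2 CPM at 2, 4 and 6 dpw. Its *igf2a* stood at 66.0 CPM in unwounded skin, from 9 UMIs, and at 2.997, 0.979 and 3.29 CPM in the wounds. The single cell with the most UMIs of any of the 9 genes was a mucous-like cell of unwounded skin, with 157 UMIs of *igfbp5b*.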
